A study of Mus musculus with 12 samples.

Results

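Gata4, Gata6, Nkx2-5, Tbx5, Tbx20, Mef2a, Mef2c, Mef2d and Hand2 encode transcription factors of the heart, and they are described here in the heart and lung of Adam19 wildtype (WT) and knockout (KO) mice. They were chosen by gene name and not by their values, and all 9 were found among the 55679 genes of the deposited gene table. RNA was sequenced from the heart and the lung of the same 6 male mice on the 129S6/SvEvTac background, 9 to 13 weeks old, 3 of them WT and 3 KO, which gave 12 stranded total RNA libraries, 3 for each tissue and genotype. KO mice were homozygous for an allele in which tdTomato and a hygromycin resistance cassette stand in place of Adam19 exons 6 and 7, in every cell of the body, and WT mice carried no engineered allele. WT and KO mice share no prefix of their mouse identifiers, so that whatever the prefix marks cannot be told apart from genotype.

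The 9 genes lie on 9 different chromosomes of GRCm39. Gata4 (ENSMUSG00000021944.16) is on the reverse strand at chr14:63436362-63509141 and Gata6 (ENSMUSG00000005836.11) on the forward strand at chr18:11051565-11086995. Nkx2-5 (ENSMUSG00000015579.6) is on the reverse strand at chr17:27057638-27063983 and Hand2 (ENSMUSG00000038193.5) on the forward strand at chr8:57774011-57777677. Tbx5 (ENSMUSG00000018263.12) is on the forward strand at chr5:119970733-120023284 and Tbx20 (ENSMUSG00000031965.16) on the reverse strand at chr9:24629434-24685599. Mef2a (ENSMUSG00000030557.18) is on the reverse strand at chr7:66880911-67022606, Mef2c (ENSMUSG00000005583.17) on the forward strand at chr13:83652064-83815555 and Mef2d (ENSMUSG00000001419.18) on the forward strand at chr3:88049185-88079398. No transcript of another gene matched a main transcript of the 9 over at least 500 bases at 95% identity or more, with 15 transcripts searched.

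GATA4 and GATA6 are zinc finger proteins that bind GATA sites, NKX2-5 is a homeodomain protein, TBX5 and TBX20 are T-box proteins, HAND2 is a basic helix-loop-helix protein that binds E-boxes, and MEF2A, MEF2C and MEF2D are MADS-box proteins. In heart muscle these proteins bind many regulatory regions together and control genes of the sarcomere, of calcium handling and of the natriuretic peptides. Several of them also work outside the heart: GATA6 in airway and vascular cells, TBX5 in the mesenchyme of the developing lung, and MEF2 proteins in most tissues, where histone deacetylases hold them back and calcium signalling releases them.

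The MEF2 genes are alternatively spliced within their coding parts, and the exons are shown because their use is compared between the tissues below. Each gene has a short exon that is either included or skipped, known as the β exon. It spans 24 bases in Mef2a (chr7:66894269-66894292, reverse strand), 24 in Mef2c (chr13:83802717-83802740, forward strand) and 21 in Mef2d (chr3:88069088-88069108, forward strand), all of them whole codons. The exons are given 5′ to 3′ from GRCm39, with the exon in capitals throughout.
Mef2a short exon: TCGGAGGAAGAGGAATTGGAGTTG
Mef2c short exon: TCTGAGGATGTGGATCTGCTGTTG
Mef2d short exon: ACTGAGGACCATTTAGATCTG
The Mef2a and Mef2c short exons share 17 of 24 bases, and the Mef2d exon shares 11 of its 21 bases with either of them. Near the 5′ end of the coding part, each gene also has a pair of exons of which a transcript holds either the upstream or the downstream one. In Mef2d these are an upstream exon of 138 bases (chr3:88065341-88065478) and a downstream exon of 135 bases (chr3:88065528-88065662).
Mef2d upstream exon: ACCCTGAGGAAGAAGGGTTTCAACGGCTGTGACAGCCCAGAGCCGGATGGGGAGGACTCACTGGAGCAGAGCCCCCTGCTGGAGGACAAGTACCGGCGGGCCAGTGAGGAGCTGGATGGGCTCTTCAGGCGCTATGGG
Mef2d downstream exon: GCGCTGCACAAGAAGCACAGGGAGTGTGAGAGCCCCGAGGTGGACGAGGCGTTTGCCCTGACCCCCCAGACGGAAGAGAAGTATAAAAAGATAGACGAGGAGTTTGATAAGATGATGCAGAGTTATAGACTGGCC
Aligned to each other, the 2 exons of Mef2d had 70 identical bases over the 135 of the shorter one.

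Over the 12 libraries Hand2 and Nkx2-5 were each the gene whose profile was most like that of the other, and the DNA before their start sites is shown for that reason. RefSeq promoter sequences (GRCm38.p6 table) were found for 6 of the 9 genes. The 200 bases from 250 to 51 before the start are given on the strand of the gene, with coordinates from an exact match to GRCm39, chr8:57773768-57773967 (forward) for Hand2 and chr17:27060590-27060789 (reverse) for Nkx2-5. Matches on either strand to a GATA motif (AGATAA, or the same with T first, G last or both), a T-box motif (AGGTGT), an NKX2 motif (AAGTG) or the MEF2 motif are in capitals.
Hand2: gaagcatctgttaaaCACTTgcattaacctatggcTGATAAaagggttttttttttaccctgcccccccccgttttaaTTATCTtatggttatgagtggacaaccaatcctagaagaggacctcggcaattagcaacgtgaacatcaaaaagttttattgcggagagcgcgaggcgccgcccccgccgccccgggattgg
Nkx2-5: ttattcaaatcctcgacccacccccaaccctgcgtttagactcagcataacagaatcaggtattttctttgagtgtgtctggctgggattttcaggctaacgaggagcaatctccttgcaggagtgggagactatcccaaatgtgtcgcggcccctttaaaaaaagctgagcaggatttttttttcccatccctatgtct
The Hand2 window held 2 GATA matches and 1 NKX2 match. Of the windows of all 32851 promoters in the table, 23.1% held at least 1 GATA match and 34.2% at least 1 NKX2 match. The share with 2 GATA matches was not counted. The Nkx2-5 window held none of these 4 motifs and 1 E-box (CANNTG), and the Hand2 window held 2 E-boxes, of which 1 overlaps the NKX2 match; 59.0% of all windows held an E-box. T-box and MEF2 matches were found in 9.86% and 2.42% of all windows and in neither of these. Exons of the noncoding RNA Hand2os1 on the opposite strand cover part of the Hand2 window. The Nkx2-5 window lies within the bounds of Nkx2-5 given above, so it precedes a start inside the gene and not its outermost 5′ end.

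Abundance is given as deposited by the authors, the log2 of 1 plus the estimated read count of a gene plus a constant for each library, and is called normalised abundance. Estimated counts summed to between 1.77e+07 and 3.59e+07 a library in the transcript table. Adam19 itself lay at 9.17 to 10.27 in WT hearts and 6.01 to 6.67 in KO hearts, and at 9.12 to 9.41 in WT lungs and 3.21 to 4.44 in KO lungs. The labelled tissue fitted its markers in every library: the summed heart muscle markers lay at 21.0 to 21.3 in hearts and 13.6 to 14.9 in lungs, and the summed lung epithelium markers at 18.9 to 19.2 in lungs and 6.44 to 10.7 in hearts. No tested marker of the 12 cell type lists was called between KO and WT mice in either tissue. In bulk tissue, fewer cells of a type and less RNA per cell cannot be told apart.

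All 9 genes were more abundant in the heart than in the lung, and every heart library lay above every lung library for each of them. They differed in how far the lung lay below. Gata6, Tbx5, Mef2a, Mef2c and Mef2d were within a few fold between the tissues, and Tbx20 fell far lower in the lung but kept a mean abundance above 6, the threshold on group means that the study used. The other 3, Gata4, Nkx2-5 and Hand2, had lung means under 6 in both genotypes. By that threshold 6 of the 9 genes were shared with the lung and 3 were not. The threshold takes no account of transcript length. Counted per kilobase of transcript, as given below, Tbx20 overlapped Gata4 and Nkx2-5 in WT lungs by mean ± SD over libraries. Within every lung library, however, Tbx20 lay above both by this count. In WT lungs 1, 2 and 3 it stood at 2.70%, 1.84% and 4.67% of Mef2a in the same library. Gata4 stood at 1.90%, 1.37% and 0.92% there, and Nkx2-5 at 2.18%, 0.79% and 1.02%. All 10 heart muscle markers also had WT lung means above 6 (lowest 6.67).

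**Figure D1:**
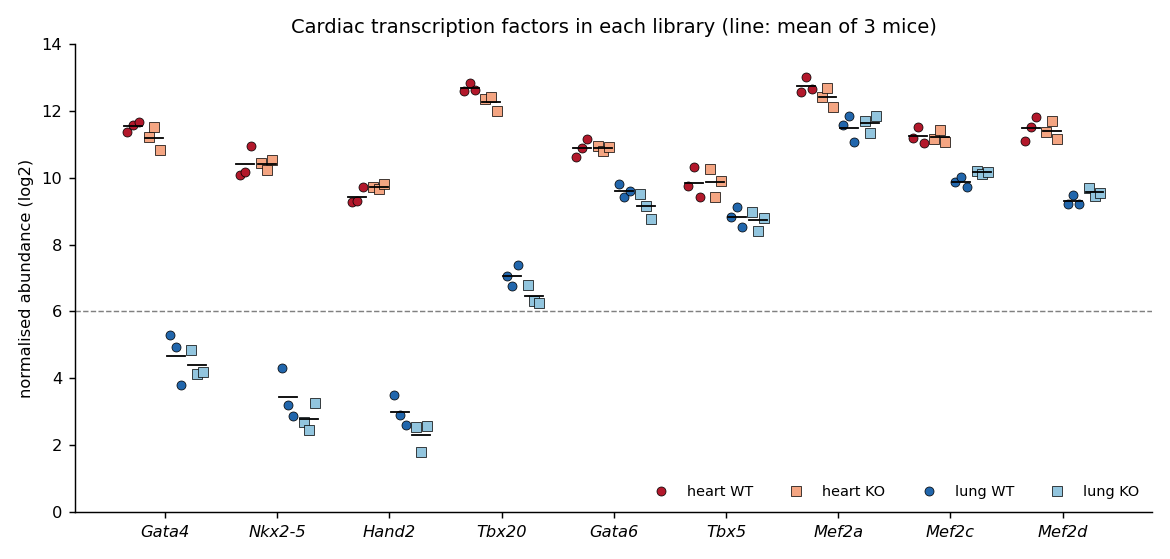
Normalised abundance (log2) of the 9 genes in the 12 libraries, by tissue and genotype, with a point for each mouse, a line at the mean of 3 mice and a dashed line at 6. Every heart point lies above every lung point of the same gene, and only Gata4, Nkx2-5 and Hand2 have all 6 lung points under 6.

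Gata4, which encodes a zinc finger protein needed for heart tube formation, lay at 11.37, 11.58 and 11.67 in the hearts of WT replicates 1, 2 and 3 and at 11.21, 11.51 and 10.84 in those of KO replicates 1, 2 and 3. In the lungs of the same mice it lay at 5.29, 4.94 and 3.80 (WT) and at 4.84, 4.13 and 4.18 (KO). The lung values stood for 13.9 to 32.3 estimated counts a library. In WT mice the heart was higher by 6.87 ± 0.34 (log2, SE), a fold of 117.

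Nkx2-5, the homeodomain factor of the heart field and of cardiac muscle, lay at 10.08, 10.18 and 10.96 in WT hearts and at 10.44, 10.23 and 10.54 in KO hearts. The highest heart value belonged to WT replicate 3. In the lung it lay at 4.31, 3.19 and 2.86 (WT) and at 2.68, 2.44 and 3.25 (KO), which is 6.49 to 15.5 estimated counts. The WT heart was higher by 6.96 ± 0.37, which differs from the 6.87 of Gata4 by less than its SE.

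Hand2, which encodes a basic helix-loop-helix factor of the right ventricle and of sympathetic neurons, lay at 9.27, 9.31 and 9.72 in WT hearts and at 9.72, 9.65 and 9.81 in KO hearts. In lungs it lay at 3.49, 2.90 and 2.59 (WT) and at 2.55, 1.80 and 2.58 (KO). All 6 lungs lay far below all 6 hearts, and 3.896 to 8.37 estimated counts stood behind the lung values. The WT heart was higher by 6.44 ± 0.29. At so few counts the added 1 under the log2 makes the fold of Hand2, Nkx2-5 and Gata4 too small rather than too large.

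Tbx20, a T-box factor of the myocardium and of the endocardial valves, lay in the heart at 12.59, 12.83 and 12.61 (WT) and 12.34, 12.43 and 11.98 (KO). In the lung it lay at 7.06, 6.75 and 7.40 (WT) and at 6.80, 6.32 and 6.24 (KO). The heart was higher by 5.61 ± 0.20 in WT mice, a fold of 48.7. By this difference Tbx20 stood with the first 3 genes. Its lung values lay above those of the first 3 genes and below those of the other 5, without overlap. Of the 17666 genes tested, 98.6% had a smaller heart minus lung difference than Tbx20, and 99.2% to 99.6% had a smaller one than Gata4, Nkx2-5 and Hand2.

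Gata6, whose product shares its DNA-binding domain with GATA4, lay at 10.62, 10.90 and 11.14 in WT hearts and at 10.96, 10.79 and 10.92 in KO hearts. Its lung values were 9.82, 9.43 and 9.59 (WT) and 9.51, 9.15 and 8.76 (KO). The heart was thus higher by 1.27 ± 0.19 in WT mice, a fold of 2.42, where the difference for Gata4 was 117-fold.

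Tbx5, which patterns the atria, the conduction system and the forelimb, lay at 9.75, 10.33 and 9.41 in WT hearts and at 10.27, 9.43 and 9.90 in KO hearts. In the lung it lay at 8.84, 9.12 and 8.51 (WT) and at 8.99, 8.39 and 8.80 (KO). The heart minus lung difference of 1.01 ± 0.27 in WT mice was the lowest estimate of the 9 genes, within its SE of Gata6 and Mef2a. WT replicate 3 and KO replicate 2 had the lowest Tbx5 of the hearts, and the same 2 hearts stood apart in 3 of 4 genes of the atria. Myl7, the atrial myosin light chain, lay at 12.47 and 12.76 there and at 14.49 to 15.41 in the other 4 hearts. Myl4 lay at 12.35 and 12.24 against 14.18 to 15.16, and Sln, which encodes the atrial calcium pump regulator sarcolipin, at 9.83 and 10.10 against 12.28 to 12.65. The fourth, Nppa, did not set the pair apart: it was lowest in WT replicate 3 (14.03), and KO replicate 2 (15.72) lay among the other 4 hearts (15.35 to 16.32). The part of these genes in the spread of Tbx5 was not tested. Without these 2 hearts the WT difference of Tbx5 was 1.22 and that of Gata6 1.14, so that Gata6 was then the lowest; this alternative was chosen after seeing the data.

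Mef2a, whose product is a main MEF2 protein of adult heart muscle, lay at 12.56, 13.01 and 12.65 in WT hearts and at 12.42, 12.69 and 12.11 in KO hearts, against 11.58, 11.84 and 11.08 in WT lungs and 11.70, 11.34 and 11.86 in KO lungs. The heart was higher by 1.24 ± 0.22 in WT and by 0.77 ± 0.22 in KO mice. Mef2c, whose product is needed for the development of the second heart field and of vessels, lay at 11.18, 11.53 and 11.03 in WT hearts, at 11.15, 11.42 and 11.07 in KO hearts, at 9.86, 10.02 and 9.72 in WT lungs and at 10.19, 10.11 and 10.18 in KO lungs. Its WT difference was 1.38 ± 0.15. Mef2d, whose product mediates stress signals in the adult heart, lay at 11.10, 11.51 and 11.82 in WT hearts, at 11.35, 11.70 and 11.16 in KO hearts, at 9.21, 9.47 and 9.21 in WT lungs and at 9.70, 9.45 and 9.56 in KO lungs. With 2.17 ± 0.19 it had the largest difference of the 5 genes that were within a few fold between the tissues.

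Heart and lung were tested with limma over 17666 genes, with adjusted p (Benjamini-Hochberg) under 0.05, a fold of at least 1.5 and a group mean of at least 6. In WT mice 9 of the 9 genes passed as higher in the heart, beside 20.1% of all genes tested, and in KO mice again 9 of 9, beside 20.9%. Nkx2-5 and Hand2 entered this test through their heart counts alone, and with at least 10 estimated counts asked of every library 7 genes were tested and 7 passed in each genotype. The adjusted p values in WT mice ran from 2.05e-10 for Tbx20 to 0.00513 for Tbx5, and in KO mice from 1.65e-10 for Tbx20 to 0.00744 for Mef2a. The median difference of the 9 genes was 2.17 in WT and 1.83 in KO mice, where the median of all genes was −0.32 and −0.29. Without any scaling between libraries, which moves the median of all genes to −0.74 in WT and −0.38 in KO mice, Gata6 (0.85, adjusted p = 0.0532 by limma) and Tbx5 (0.59, adjusted p = 0.185) missed the threshold in WT mice and Mef2a (0.68, adjusted p = 0.0987) in KO mice, all still higher in the heart.

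Lungs of mice contain heart muscle in the walls of the large pulmonary veins, and all 10 heart muscle markers were above 0 in all 6 lungs. Their WT lung means ran from 6.67 (Nppa) to 13.6 (Myh6), and their summed level lay at 14.1 to 14.9 in WT and 13.6 to 14.1 in KO lungs. The WT heart minus lung difference of the markers ran from 2.40 for the atrial Myl7 to 10.6 for the ventricular Myl2, and the 9 markers other than Myl7 lay between 6.40 and 10.6 with a median of 7.08. Gata4 (6.87), Nkx2-5 (6.96) and Hand2 (6.44) had differences within the range of those 9 markers, Tbx20 (5.61) lay below it, and Gata6, Tbx5, Mef2a, Mef2c and Mef2d (1.01 to 2.17) lay below Myl7. Myl7 was not alone among genes of the atria. Myl4 (2.74 ± 0.68) and Sln (2.95 ± 0.75), which are not among the 10 markers, lay near it, and Nppa (8.26) did not. Gata4, Nkx2-5, Hand2 and Tbx20 lay above Myl7, Myl4 and Sln. How much of the lung signal of each gene came from muscle of the pulmonary veins was not tested.

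**Figure D2:**
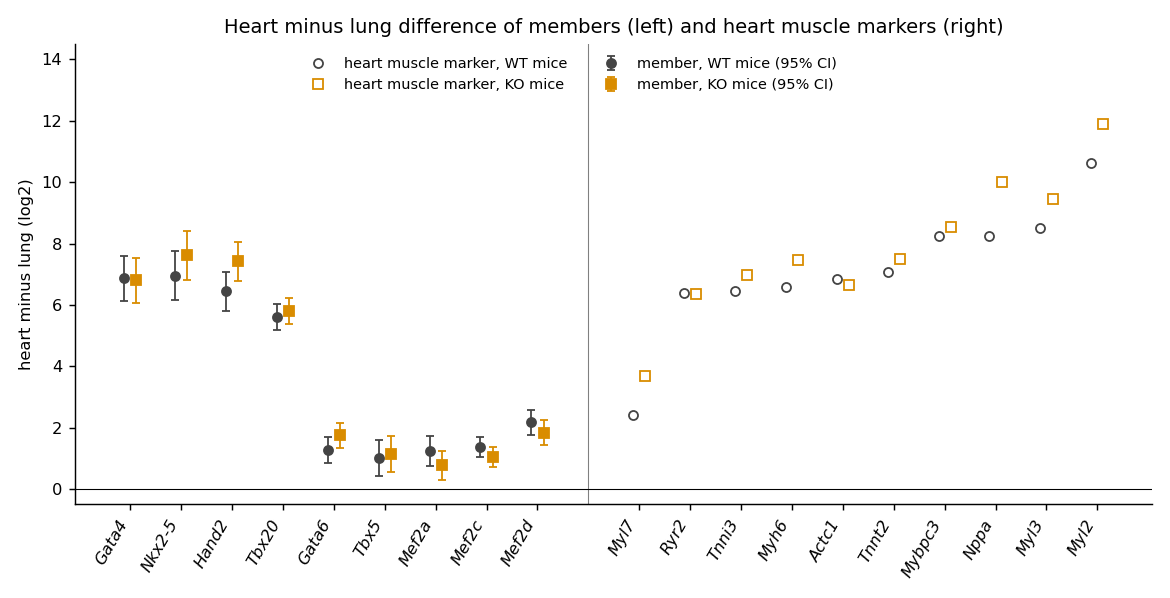
Heart minus lung difference (log2) in WT and KO mice for the 9 genes on the left, with 95% confidence intervals from limma, and for the 10 heart muscle markers on the right. Gata4, Nkx2-5 and Hand2 lie at 6.44 to 7.61, among most of the markers, and Gata6, Tbx5 and the MEF2 genes lie at 0.77 to 2.17.

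Levels of different genes were compared per length, as estimated counts per kilobase of transcript, scaled to the same total over all transcripts of each library (the scale of TPM). In WT hearts this per-length level was 60.4 ± 9.33 (SD, n = 3) for Mef2a, 43.6 ± 17.2 for Nkx2-5, 40.6 ± 4.78 for Gata4, 35.3 ± 2.97 for Tbx20, 25.2 ± 6.53 for Mef2d, 23.5 ± 4.73 for Mef2c, 20.9 ± 4.63 for Gata6, 15.8 ± 4.86 for Tbx5 and 14.04 ± 3.00 for Hand2. The mean ± SD of neighbours in this order overlapped, except for Tbx20 and Mef2d. The order depends on the lengths used: from the gene values over the mean length of all annotated transcripts of a gene, Tbx20 (84.2) came before Mef2a (81.3), and Gata6 came to 42.6. In WT lungs it was 17.1 ± 3.41 for Mef2a, 4.31 to 6.03 for Gata6, Mef2c, Tbx5 and Mef2d, 0.53 ± 0.32 for Tbx20, 0.23 ± 0.05 for Gata4, 0.21 ± 0.07 for Nkx2-5 and 0.09 ± 0.01 for Hand2. There the mean ± SD of Gata6, Mef2c, Tbx5 and Mef2d overlapped, as did those of Tbx20, Gata4 and Nkx2-5, and Mef2a lay above and Hand2 below all others. Within each single lung library, Tbx20 lay above Gata4 and Nkx2-5. The short noncoding RNA gene Rn7s1 took 7.29% to 72.4% of the per-length total of a lung and 14.7% to 45.0% of that of a heart, so per-length levels are not set against each other between libraries. Without Rn7s1 in the total, the level of Mef2a was 76.1 in WT hearts and 45.4 in WT lungs.

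Within a library the ratio of any pair of genes does not depend on that total. Relative to Mef2a in the same library, Gata4 reached 66.1% ± 6.39 (SD, n = 6) in hearts and 1.21% ± 0.42 in lungs. Nkx2-5 reached 80.9% ± 26.6 in hearts and 1.003% ± 0.60 in lungs, Tbx20 57.0% ± 3.84 and 2.40% ± 1.20, and Hand2 29.8% ± 9.52 and 0.44% ± 0.19. Tbx5, by contrast, stood at 30.1% ± 9.40 of Mef2a in hearts and 28.0% ± 2.82 in lungs, Gata6 at 39.7% ± 9.63 and 29.3% ± 10.4, Mef2c at 41.9% ± 4.75 and 35.6% ± 6.07, and Mef2d at 45.3% ± 7.62 and 26.4% ± 4.07. The ranges of hearts and lungs overlapped for Tbx5, Gata6 and Mef2c and did not overlap for Mef2d. From gene values over mean transcript length, Tbx20 stood at 101% ± 7.05 of Mef2a in hearts and 4.24% ± 2.22 in lungs, Gata6 at 60.1% ± 14.8 and 43.7% ± 15.8, Hand2 at 18.7% ± 6.19 and 0.27% ± 0.12, and Nkx2-5 at 54.2% ± 18.4 and 0.65% ± 0.38. By either length the gap between the tissues remained for Tbx20, Gata4, Nkx2-5 and Hand2.

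**Figure D3:**
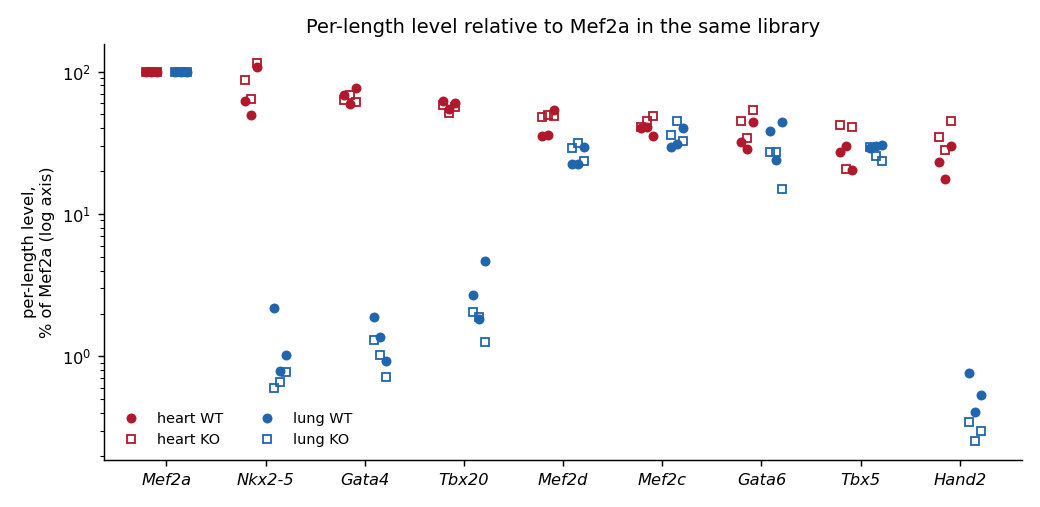
Per-length level of each gene in percent of Mef2a in the same library, on a log axis, with filled points for WT and open points for KO mice. Hand2, Nkx2-5, Gata4 and Tbx20 drop to between 0.25% and 4.67% of Mef2a in lungs, and Mef2d, Mef2c, Gata6 and Tbx5 stay between 14.9% and 45.1%.

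No gene of the 9 passed the thresholds between KO and WT mice in either tissue. In the heart 0 of 9 were called by limma, beside 13 of 15303 genes (0.085%), and the lowest adjusted p of the 9 was 0.609. In the lung 0 of the 7 tested were called, beside 11 of 16551 (0.0665%), with a lowest adjusted p of 0.820, and Nkx2-5 and Hand2 had too few counts there to be tested. At an unadjusted p under 0.05 there was 1 gene in each tissue, against 7.46% of all genes in the heart and 5.93% in the lung. limma-voom also called 0 in each tissue.

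Tbx20 was that 1 gene in both tissues. It was lower in KO mice by −0.43 (log2, 95% interval −0.77 to −0.09, adjusted p = 0.609 by limma) in the heart and by −0.62 (−1.20 to −0.03, adjusted p = 0.820) in the lung. The KO hearts lay below the WT hearts without overlap, and the lungs overlapped, since KO replicate 1 (6.80) lay above WT replicate 2 (6.75). In the same lungs the 10 heart muscle markers had a median KO minus WT difference of −0.58, and the part of this in the value of Tbx20 was not tested. In the heart their median was −0.04.

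The intervals of the other genes in the heart covered 0. They were −0.76 to 0.05 for Gata4, −0.34 to 0.35 for Gata6, −0.51 to 0.51 for Nkx2-5, −0.57 to 0.64 for Tbx5, −0.74 to 0.08 for Mef2a, −0.40 to 0.33 for Mef2c, −0.54 to 0.40 for Mef2d and −0.05 to 0.64 for Hand2. In the same hearts Tubb3, a neuronal tubulin, averaged 7.41 in KO and 4.46 in WT (adjusted p = 0.378 by limma), while Dbh, the noradrenaline enzyme of sympathetic neurons, averaged 6.78 and 6.94. The 5 smooth muscle markers had a median KO minus WT difference of 0.81, and the smooth muscle gene Tagln one of 1.38 (adjusted p = 0.194), none of them called. The part of these markers in the values of Hand2 or the other genes was not tested. A 1.5-fold change in either direction lies outside the intervals of Gata6, Nkx2-5, Mef2c and Mef2d in the heart, and outside none in the lung. In the lung the estimates were −0.29 for Gata4, with an interval of −1.34 to 0.76, −0.48 for Gata6 (−0.97 to 0.02), −0.10 for Tbx5 (−0.60 to 0.41), 0.14 for Mef2a (−0.38 to 0.65), 0.29 for Mef2c (−0.04 to 0.63) and 0.27 for Mef2d (−0.09 to 0.63). KO and WT libraries did not overlap for 1 of 9 genes in the heart (Tbx20), where this held for 13% of all genes tested. In the lung it was 1 of the 7 tested, Mef2c, higher in KO, beside 12.8% of all genes, and the untested Hand2 was lower in KO lungs without overlap at 8.37 estimated counts or fewer.

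**Figure D4:**
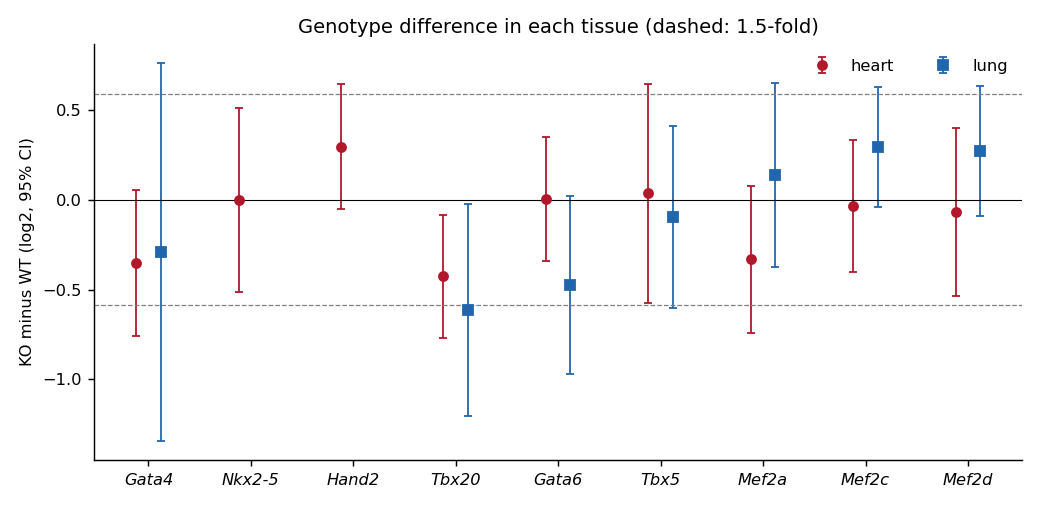
KO minus WT difference (log2) of each gene in heart and lung with 95% confidence intervals from limma and dashed lines at 1.5-fold. Only the 2 intervals of Tbx20 leave out 0, and none of the 16 differences passed the adjusted threshold. Nkx2-5 and Hand2 were not tested in the lung.

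The genotype difference was also compared between the tissues in 1 model of all 12 libraries. None of the 9 genes differed after adjustment, beside 1 of 17666 genes (0.00566%). At an unadjusted p under 0.05 by limma there was 1 of the 9, Hand2, beside 1392 of the 17666 genes. After adjustment limma-voom also called 0 of the 9. Nkx2-5 and Hand2 entered this model through their heart counts alone, and their lung counts were too low for a genotype difference there.

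The 9 genes have 73 transcripts in the deposited transcript table, of which 34 were tested between heart and lung in WT mice. Of these, 19 passed, 18 of them higher in the heart, where 26.9% of all transcripts tested passed in either direction. Some entered the test through 1 tissue alone, such as ENSMUST00000107558.9 of Mef2d through hearts and ENSMUST00000107476.8 of Mef2a through lungs. With at least 10 estimated counts in every library 9 passed, but fewer were tested, so 9 is not a share of the 34. Hand2, with 1 transcript, and Gata6, Nkx2-5 and Tbx20, each with 1 transcript that held at least 96.2% of the counts as a mean in every group, used the same transcript in both tissues. Tbx5 was divided between ENSMUST00000018407.10, with 87.1% ± 1.46 (SD, n = 3) of the counts in WT hearts and 82.4% ± 12.1 in WT lungs, and ENSMUST00000202504.3, with 11.6% ± 1.54 and 12.2% ± 12.6. Gata4 was divided among ENSMUST00000118022.8, ENSMUST00000121312.2 and ENSMUST00000067417.10 in WT hearts, with 50.0% ± 16.6, 28.3% ± 21.3 and 17.2% ± 6.43. In KO hearts the same transcripts held 62.0% ± 6.09, 5.39% ± 9.34 and 28.7% ± 4.45, and in WT lungs 50.0% ± 50.0, 16.7% ± 28.9 and 31.8% ± 55.1. Single hearts differed widely: ENSMUST00000121312.2 had 768, 623 and 83.5 counts in WT and 0, 429 and 0 in KO replicates 1, 2 and 3. All 3 KO lungs and the lung of WT replicate 3 assigned every Gata4 count to ENSMUST00000118022.8, at the low counts of Gata4 in the lung. These shares were not tested between genotypes.

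The only transcript of the 9 genes that passed as lower in the heart was ENSMUST00000107476.8 of Mef2a, which lacks the short exon. It held 15.6% ± 5.15 of the Mef2a counts in WT lungs and 17.7% ± 3.80 in KO lungs, and it was listed at 0 in all 6 hearts. The leading Mef2a transcript, ENSMUST00000156690.8, which holds the short exon, was higher in the heart by 1.58 ± 0.19. It took 90.0% ± 0.86 of the counts in WT hearts and 73.6% ± 8.22 in WT lungs. Mef2c counts were spread over ENSMUST00000197146.5 (49.9% ± 3.30 in WT hearts, 53.2% ± 8.92 in WT lungs), ENSMUST00000005722.14 (32.6% ± 8.99 and 23.9% ± 8.35) and ENSMUST00000199432.5 (6.92% ± 5.998 and 8.84% ± 4.73). Mef2d was led by ENSMUST00000001455.13, with 86.4% ± 3.09 in WT hearts and 92.6% ± 4.83 in WT lungs.

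Counts were then added over the transcripts that hold each alternative exon and divided by the counts of all transcripts that span its place, a comparison chosen after the data were seen. The Mef2a short exon was in 90.5%, 90.6% and 91.8% of the spanning counts in WT hearts and in 93.2%, 89.9% and 94.1% in KO hearts. In lungs it was in 71.0%, 72.5% and 88.3% (WT) and in 75.1%, 71.8% and 78.4% (KO). The share was higher in the heart in 6 of 6 mice, by 15.5 ± 6.005 percentage points (SD, n = 6), and WT replicate 3 had the lung closest to the hearts. Its exact permutation p over the 6 mice was 0.03125, the smallest that 6 pairs allow (two-sided), and 0.0625 after adjustment over the 6 exon comparisons made.

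Mef2d went the same way for both of its alternative exons, at much lower shares. Its short exon was in 3.19%, 2.31% and 3.99% of the spanning counts in WT hearts and in 3.13%, 4.64% and 4.40% in KO hearts, and in 0% to 0.66% in lungs. The Mef2d downstream exon was in 6.12%, 5.51% and 7.90% in WT hearts and in 4.28%, 5.68% and 7.03% in KO hearts, where the lungs lay between 0% and 1.48%. The difference was 3.43 ± 0.91 points for the short and 5.71 ± 1.28 points for the downstream exon, each higher in the heart in 6 of 6 mice (exact permutation p = 0.03125, adjusted 0.0625). The estimated counts behind these shares were low. The transcript with the short exon, ENSMUST00000107559.3, had 38.8 to 152 counts in hearts and 0 to 8.005 in lungs. The one with the downstream exon, ENSMUST00000107558.9, had 92.9 to 186 in hearts and 0 to 7.89 in lungs.

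Mef2c showed no such separation. Its short exon was in 49.2% to 59.0% of the spanning counts in hearts and in 50.1% to 73.4% in lungs, a difference of −6.88 ± 6.31 points that was negative in 5 of 6 mice (exact permutation p = 0.0625, adjusted 0.0938). The downstream exon of Mef2c was in 29.5% to 46.3% in hearts and 19.4% to 41.6% in lungs (4.78 ± 6.04 points, exact permutation p = 0.125). For Mef2a the downstream exon was in 5.90% to 10.1% in hearts and 1.31% to 9.19% in lungs (2.18 ± 3.00 points, exact permutation p = 0.0938). These shares come from counts that the authors' software divided among overlapping transcripts, and reads across the junctions were not analysed here.

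**Figure D5:**
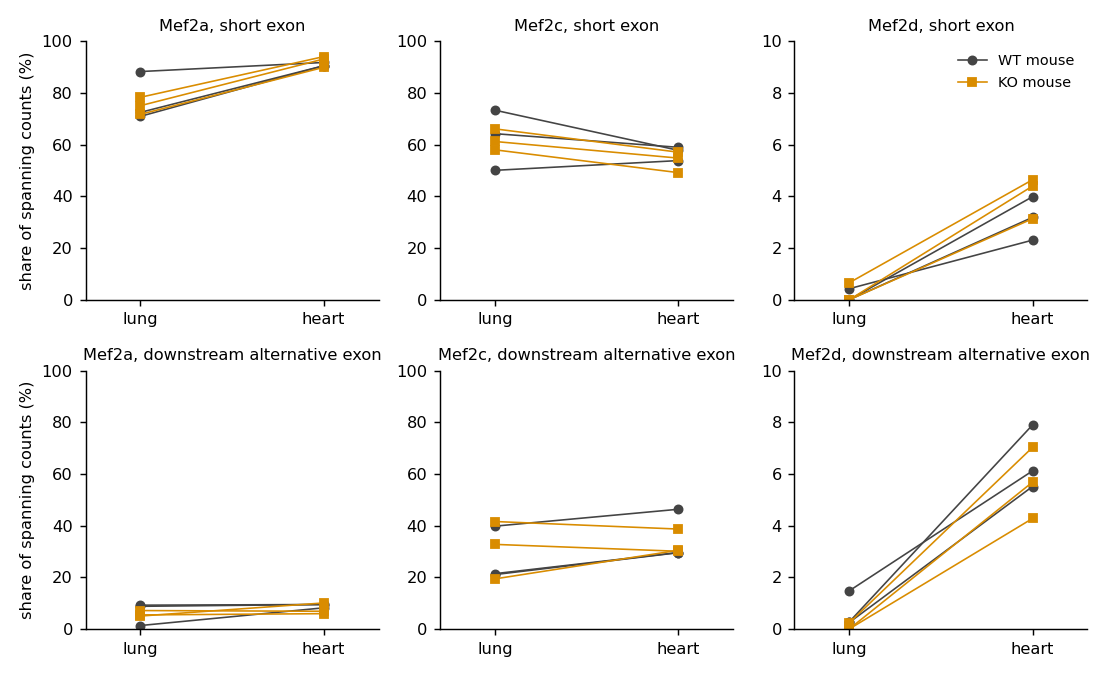
Share of the spanning counts, in percent, that hold the short exon (top) and the downstream alternative exon (bottom) of Mef2a, Mef2c and Mef2d in the lung and heart of each mouse, joined by a line; the Mef2d axes run to 10%. Hearts lie above lungs in all 6 mice for the Mef2a short exon and for both Mef2d exons.

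By Pearson's r over the 12 log2 values, among 13937 genes with a group mean of at least 6, the profile of Nkx2-5 was most like that of Hand2 (0.998), followed by Irx4, a homeodomain factor of the ventricle (0.997). Hand2 was most like Nkx2-5 and Ndufs5 (0.998 each). Gata4 was nearest to Synpo2l and Ldb3 (0.999 each), and Tbx20 to Actn2 and Srl (0.998 each), of which Ldb3 and Actn2 encode Z-disc proteins and Srl the sarcoplasmic reticulum protein sarcalumenin. Among the genes within a few fold between the tissues, Gata6 was nearest to Ssbp1 and Epn1 (0.990 and 0.988). Mef2a was nearest to Efr3b and mt-Rnr2 (0.986 and 0.984), Mef2c to Zyg11b and Dnm1l (0.989 and 0.988) and Mef2d to Nfatc2 and Bag3 (0.994 and 0.993). Tbx5 had the lowest values, 0.955 for both Abat and Sbk3. All of these rest mainly on the step between heart and lung, which the 12 points share.

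Other transcription factors and cofactors of the heart went both ways. Of the 27 tested of 30, 9 were higher in WT hearts and 13 in WT lungs, with a median heart minus lung difference of −0.46, and 0 were called between KO and WT mice in either tissue. Irx4 was higher in the heart by 8.90 ± 0.41 and Smyd1, a muscle methyltransferase, by 6.44 ± 0.14. The T-box repressor Tbx2 was lower in the heart by −4.68 ± 0.16 and Gata3, a GATA factor of lymphocytes, by −4.65 ± 0.66. Thus relatives of the 9 genes from the T-box and GATA families were among those higher in the lung.

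Of 16 tested genes for regulators of MEF2 proteins, 8 were higher in WT hearts and 5 in WT lungs (median 0.50), and 0 were called between the genotypes. Hdac9, a deacetylase that represses MEF2, was higher in the heart by 2.99 ± 0.24, and Camk2d, a kinase that releases this repression, by 1.83 ± 0.16. Prkd1, another such kinase, was lower by −1.72 ± 0.18. Hrc, a calcium-binding protein of the sarcoplasmic reticulum that is better known as a MEF2 target than as a regulator, was higher by 7.61 ± 0.23.

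Of the 28 heart genes known as targets of these factors, 27 were higher in WT hearts and 0 lower, with a median of 6.59, and 0 were called between KO and WT in the heart (median −0.07) or the lung (median −0.34, 27 tested). The largest differences were those of Myl2 (10.6 ± 0.99), the natriuretic peptide genes Nppb (9.51 ± 0.60) and Nppa (8.26 ± 0.48), and Myl3 (8.51 ± 0.29). Of the 19 lung partners and targets, 17 were lower in WT hearts and 1 higher (median −8.05), and 0 were called between the genotypes. They were led by Scgb1a1 of airway secretory cells (−11.2 ± 1.07) and the surfactant genes Sftpc (−11.1 ± 0.70), Sftpd (−10.9 ± 0.74) and Sftpa1 (−10.9 ± 0.96).

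Noncoding RNAs beside the 9 genes or tied to them were found for 3 of 6 listed names, and all 3 were higher in WT hearts. Hand2os1, which starts beside Hand2 on the opposite strand, had means of 10.4 in WT hearts and 4.48 in WT lungs, a difference of 5.89 ± 0.24 beside 6.44 for Hand2. Gata6os, beside Gata6, had means of 8.48 and 6.33, a difference of 2.14 ± 0.20 beside 1.27 for Gata6. Mir133a-1hg, the host of a heart and skeletal muscle microRNA, averaged 6.44 in the hearts of WT mice, and every lung listed it at 0. None of the 3 was called between KO and WT in the heart, nor either of the 2 tested in the lung.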

How the data were processed

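Stranded total RNA libraries of heart and lung from 3 WT and 3 KO mice were quantified by the authors with Salmon against GENCODE transcripts of mm39, and the submitters' processing notes also list limma 3.42.2, STAR and cutadapt. The authors deposited log2 values only: for transcripts log2(1 + estimated count), and for genes that scale shifted by 1 constant a library. These constants were recovered from genes with 1 transcript (at least 94.7% within 0.01). No column was left unused as belonging to other samples (0). Replicates 1, 2 and 3 name the same mice in heart and lung, from the mouse identifiers in the labels. The correlation of a mouse's heart and lung deviations over genes was 0.05, 0.14 and −0.02 (WT) and 0.02, −0.07 and −0.04 (KO).

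Genes with a deposited value of at least 3.46, the log2 of 1 plus 10, in at least 3 libraries were tested with limma 3.58.1 (R 4.3.3). The constants of the libraries ran from −0.63 to 0.80, so this cut is not exactly 10 estimated counts. The fits used lmFit and eBayes with a variance trend, within each tissue for genotype and over 12 libraries for tissue. Values ± are SE for fitted differences and SD for levels and shares. Called means adjusted p under 0.05, fold at least 1.5 and a group mean of at least 6; the difference of genotype effects was called by adjusted p alone. The filter, offset, scaling, variance trend, limma-voom, summed transcripts, the mouse as a block and each left-out library were tried as alternatives. The steps were tested on simulated data. Coordinates and transcript lengths came from GENCODE vM39 on GRCm39, which covered 99.5% of transcripts; near copies were searched with blastn 2.17.0.

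Lists of other heart transcription factors and cofactors, MEF2 regulators, heart targets, lung partners and targets, neighbouring noncoding RNAs and cell type markers were written by hand. The genes, lists and tests were chosen with earlier results of these data known. Named were up to 4 called genes of a list with the largest WT heart minus lung difference, any gene called between genotypes, the 2 genes most like each of the 9, and transcripts with at least 10% of a gene's counts; the Mef2d transcripts with alternative exons, Myl4, Myl7, Sln and Rn7s1 were added after their values were seen.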

Additional observations from a re-analysis of the deposited data

How the results depend on the processing

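All 9 genes stayed higher in the heart in WT and KO mice under every alternative in which they were tested. Their number past the thresholds was 9 in each genotype, except with 10 estimated counts in every library (7 in each, Nkx2-5 and Hand2 no longer tested) and without scaling between libraries (7 in WT and 8 in KO mice). The mouse as a replicate block changed no call. Between KO and WT mice 0 genes were called under any alternative. Some uncalled differences changed sign. In the heart, without scaling, which moves the median of all genes up to 0.62 and with it all of these genes, they were 0.23 for Gata4, 0.25 for Mef2a, 0.55 for Mef2c, 0.52 for Mef2d, 0.58 for Nkx2-5 and 0.16 for Tbx20, all below that median; in the lung 0.17 for Tbx5 (median of all genes 0.27). Gata6 in the heart was −0.024 with median of ratios. With summed transcripts Mef2c was 0.034 in the heart and Tbx5 0.12 in the lung. Nkx2-5 in the heart was 0.0077 with limma-voom, 0.0035 with the upper quartile and 0.36 without the 2 hearts low in atrial genes, which was chosen after seeing the data. With each library left out, the heart differences ran from −0.13 to 0.13 for Gata6, −0.17 to 0.27 for Nkx2-5, −0.17 to 0.29 for Tbx5, −0.14 to 0.11 for Mef2c and −0.26 to 0.10 for Mef2d, and the lung differences from −0.73 to 0.014 for Gata4, −0.25 to 0.073 for Tbx5 and −0.076 to 0.30 for Mef2a. The cause of these changes was not tested. Over all genes, the number called between KO and WT was 13 in hearts and 11 in lungs, 163 and 61 without scaling, 7 and 1 with 10 estimated counts in every library, 21 in hearts without KO replicate 2 and 31 without the 2 hearts low in atrial genes; the number with a different genotype effect in the tissues was 1, and 0 to 8 over the alternatives. Transcripts of the 9 genes called between heart and lung numbered 19, and 9 with at least 10 estimated counts in every library, where fewer were tested. The median per-length level of the 9 genes in WT hearts was 25.2, and 38.8 from gene values over mean transcript length and 32.0 without Rn7s1. With mean transcript lengths Tbx20 moved from 35.3 to 84.2 and Gata6 from 20.9 to 42.6. The mean exon share differences kept their direction with each mouse left out and over all transcripts of the gene, alternatives chosen after seeing the data. With 3 mice a group, and replicates known to be separate mice, only large genotype differences could pass. Lung values of Nkx2-5 and Hand2 rest on at most 15.5 estimated counts.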

Other observations

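The gene table has a column that marks 13320 genes as detected. Gata4, Nkx2-5 and Hand2 are marked as not detected, although their heart values lay between 9.27 and 11.67, and the other 6 genes are marked as detected. The lowest maximum over the lungs of any gene marked as detected was 5.78, while the lowest maximum over the hearts was 0. Of the genes marked as not detected, 735 had a heart group mean of at least 6 and 65 had a lung group mean of at least 6. A list of genes filtered on this column would leave out 3 of the 9 cardiac transcription factors.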
